A study of Rattus norvegicus with 6 samples.

Results

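The secreted signals of the TGF-beta superfamily were followed in Schwann cells after activation of the kinase Raf. The set holds 10 genes: the TGF-beta genes Tgfb1, Tgfb2 and Tgfb3, the activin subunit genes Inhba and Inhbb, the bone morphogenetic protein genes Bmp2, Bmp4 and Bmp6, the distant family member Gdf15, and Fst, which encodes the activin-binding inhibitor follistatin. Its members were chosen by gene symbol, taking every probe set (a group of oligonucleotides that together report 1 transcript) annotated with 1 of these names, and all 10 genes were on the array. They had 17 probe sets out of 31042 tested, and 10 of 14217 genes. The cells were primary rat Schwann cells, the glia of peripheral nerve, from sciatic nerve, and both groups carried an inducible RafER allele, a Raf kinase joined to a piece of the estrogen receptor, which tamoxifen turns on. After a day in a minimal medium the vehicle group received ethanol and the tamoxifen group received tamoxifen, in both cases for 24 h. This was done in 3 experiments called independent. The number in each array title was taken as its experiment, which gives 1 array for each treatment in each experiment. Cells lacking RafER were not analysed here, so effects of Raf and of tamoxifen itself cannot be told apart. The source labels speak of control and treated rats, whereas the design text places the treatment in the culture dish, and the latter was followed. Strain, age and sex of the rats, and how the allele was brought in, are not given in the sources used here.

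Ligands of this family are secreted as dimers cut from larger precursors. Most bind a complex of type II and type I receptors, which are serine/threonine kinases. The type I receptor phosphorylates SMAD transcription factors, each joining SMAD4. These are SMAD2 and SMAD3 for TGF-beta and activin, and SMAD1, SMAD5 and SMAD9 for bone morphogenetic proteins. TGF-beta is stored outside the cell in a latent complex and must be released before it can bind, so a transcript level does not give the level of active ligand. In peripheral nerve, TGF-beta is known as a Schwann cell product that acts back on Schwann cell division, survival and myelin gene expression.

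The values are log2 expression values, in which a step of 1 is a factor of 2. The labelled cell type was checked by its markers: 9 of 12 Schwann cell markers were measured, among them S100b at a mean of 13.11, Ngfr at 12.99 and Sox10 at 11.59 in vehicle. Over these 9 markers the mean was 10.39 to 10.72 on the vehicle arrays and 9.74 to 9.85 on the tamoxifen arrays. Of them 3 fell, Pmp22, Ngfr and S100b (33.3%, beside 31.2% of all genes). None of 12 macrophage markers passed the test, and their mean was 4.995 to 5.05 and 5.01 to 5.05 in the respective groups. Of 11 fibroblast markers, a group that holds 4 collagen genes, 2 rose and 4 fell (54.5%, beside 31.2% of all genes). Their mean was 8.01 to 8.12 and 7.64 to 7.86. Among them Lum (3.44 and 3.43) and Dcn (4.05 and 4.25) were near the lowest value of the table, 2.99. Other genes of that list were bright, among them Col1a1 at 13.15 and 11.92 and Postn at 13.19 and 13.58. Of 9 endothelial markers 1 rose (11.1%, mean 4.75 to 4.83 and 4.93 to 5.03). Of 9 smooth muscle and pericyte markers none passed (5.74 to 6.23 and 5.67 to 6.10). The part of these marker differences in the results below was not tested, and in such bulk samples fewer cells of a type and less RNA per cell cannot be told apart. Over 3 control transcripts the signal at the 3′ end exceeded that at the 5′ end by 0.84 log2 units on the vehicle array of experiment 1 and by 0.16 to 0.27 on the other arrays. Each gene is represented by its brightest probe set, and a gene rose or fell where limma's moderated test gave an adjusted p (Benjamini-Hochberg over all 31042 probe sets) under 0.05. These p-values set each difference against the spread of the 3 arrays within a group, without pairing arrays by experiment.

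After tamoxifen the transcripts of Tgfb1 and Inhba rose, that of Tgfb3 fell, and the other 7 did not pass. That is 3 of 10 members (30%), beside 31.2% of all genes, of which 13.9% were higher and 17.3% lower, so the share of members that moved was near that of the whole array. The median log2 difference of the members was 0.05, against 0.01 over all genes. The values of the 2 groups did not overlap for 5 members, beside 49.1% of all genes. A filter on dim probe sets, at a mean of 5.09, was passed by 7 members and not by Inhbb, Bmp2 and Bmp4. The deposited table holds no detection calls, so whether the low members were above background was not determined.

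**Figure D1:**
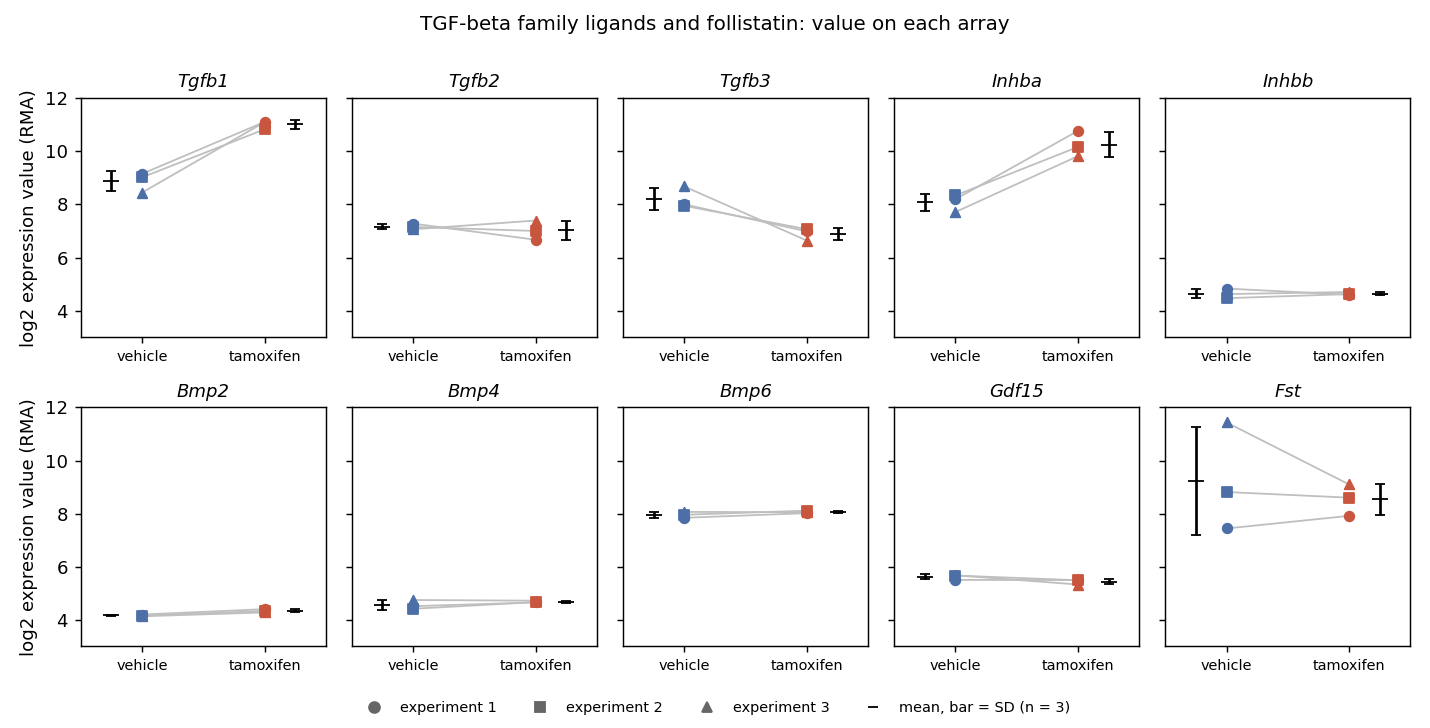
Log2 expression value of the brightest probe set of each of the 10 genes on each of the 6 arrays. Symbols mark the experiment, grey lines join the arrays of 1 experiment, and bars give mean and SD (n = 3). Tgfb1 and Inhba are higher on all 3 tamoxifen arrays than on any vehicle array, Tgfb3 is lower on all 3, and Fst spans 7.44 to 11.44 within the vehicle group.

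Of the TGF-beta genes, Tgfb1 encodes the form best known from wound repair and fibrosis. Its values were 9.15, 9.02 and 8.44 on the vehicle arrays of experiments 1 to 3, and 11.11, 10.83 and 11.10 on the tamoxifen arrays. The groups lay far apart, and the vehicle array of experiment 3 was the lowest of its group. The mean went from 8.87 ± 0.38 to 11.01 ± 0.16 (SD, n = 3 each), a log2 difference of 2.14 ± 0.20 (SE), or 4.41-fold (95% interval of the log2 difference 1.67 to 2.61; limma, adjusted p = 0.000941). Within the experiments the difference was 1.96, 1.81 and 2.66.

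Tgfb3, which encodes a ligand that uses the same receptors, went the other way. Its vehicle values were 8.001, 7.95 and 8.68, and its tamoxifen values 6.98, 7.06 and 6.64. Again the groups did not overlap, and experiment 3 held both the highest vehicle and the lowest tamoxifen value. Tgfb3 fell by 1.31 ± 0.22 (SE), from 8.21 ± 0.41 to 6.90 ± 0.23 (SD), a factor of 2.48 (95% interval -1.84 to -0.79; limma, adjusted p = 0.00692). The difference was -1.02, -0.88 and -2.04 in experiments 1, 2 and 3. The fall was thus more than double in experiment 3, and without the vehicle array of that experiment the log2 difference was -1.08 (adjusted p = 0.00835).

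Tgfb2, the remaining TGF-beta gene, showed no change beyond its spread. By its brighter probe set it stood at 7.28, 7.15 and 7.06 in vehicle and at 6.67, 6.999 and 7.39 with tamoxifen. The groups overlapped, and the sign of the difference was not the same in the experiments: -0.61, -0.15 and 0.33. The mean difference was -0.14 ± 0.18 (95% interval -0.58 to 0.30; limma, adjusted p = 0.640), and its dimmer probe set gave 0.01 ± 0.14. The dimmer one had an interval of -0.31 to 0.34.

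Of the activin subunit genes Inhba passed and Inhbb did not. Inhba encodes the beta A subunit, whose homodimer is activin A. By its brighter probe set Inhba was at 8.20, 8.34 and 7.71 in vehicle and at 10.77, 10.17 and 9.82 with tamoxifen. Every tamoxifen array lay above every vehicle array, and the difference was 2.58, 1.83 and 2.11 in experiments 1, 2 and 3. The mean log2 difference was 2.17 ± 0.27 (SE), or 4.505-fold, from 8.08 ± 0.33 to 10.25 ± 0.48 (SD; 95% interval 1.53 to 2.81; limma, adjusted p = 0.00250). The dimmer Inhba probe set had 6.13, 6.19 and 6.16 in vehicle and 6.68, 6.70 and 6.52 with tamoxifen. It passed in the same direction at a smaller size, 0.47 ± 0.09 or 1.39-fold (adjusted p = 0.0100), a call lost without both arrays of experiment 1 (0.0631) and against a fold of 1.2 (0.138). The intervals of the 2 probe sets did not meet, so the size of the Inhba rise depended on the probe set.

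Inhbb, the gene of the beta B subunit of activin B, was among the members below the dim filter. Its values were 4.83, 4.47 and 4.62 in vehicle and 4.60, 4.62 and 4.70 with tamoxifen. The tamoxifen values lay inside the vehicle range, with a difference of 0.00 ± 0.11 (95% interval -0.27 to 0.27; limma, adjusted p = 0.996). Inha, the gene of the alpha subunit that turns activin into inhibin, differed by 0.03 ± 0.12 (adjusted p = 0.891).

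The 250 bases before the RefSeq start of the 3 genes that moved are shown because these are the members that passed (build GRCr8; 8 of the 10 members matched the promoter table, in 9 windows, Bmp2 and Fst not). Tgfb1 lies on the plus strand and its stretch is chr1:90324062-90324311. The Tgfb3 stretch is chr6:111456947-111457196 on the minus strand, and that of Inhba chr17:53804509-53804758, also on the minus strand. All are written 5′ to 3′ on the gene's strand, and capitals mark the TATA box letters, TATAAA.
Tgfb1: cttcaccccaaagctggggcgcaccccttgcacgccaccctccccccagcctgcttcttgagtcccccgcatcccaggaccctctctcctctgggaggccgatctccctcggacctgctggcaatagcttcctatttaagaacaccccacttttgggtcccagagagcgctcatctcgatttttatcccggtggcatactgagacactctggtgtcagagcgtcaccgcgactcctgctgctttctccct
Tgfb3: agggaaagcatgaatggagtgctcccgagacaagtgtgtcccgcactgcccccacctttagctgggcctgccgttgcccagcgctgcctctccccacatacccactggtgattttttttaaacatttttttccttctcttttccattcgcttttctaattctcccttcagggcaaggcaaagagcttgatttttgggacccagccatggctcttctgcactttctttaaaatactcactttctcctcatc
Inhba: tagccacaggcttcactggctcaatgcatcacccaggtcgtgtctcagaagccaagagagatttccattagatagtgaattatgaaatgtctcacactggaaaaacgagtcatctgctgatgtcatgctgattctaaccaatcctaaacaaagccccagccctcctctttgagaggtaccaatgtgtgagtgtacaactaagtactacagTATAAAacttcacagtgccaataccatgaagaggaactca
The share of G and C was 60.0% before Tgfb1, 61.6% before Tgfb2 (not shown), 48.8% before Tgfb3 and 43.6% before Inhba, against a median of 51.2% over all promoters in the table. The pair CG occurred 11 times before Tgfb1, 5 times before Tgfb3 and 2 times before Inhba.

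Windows of 300 bases (250 before the start and 50 after it) were searched on both strands for 9 fixed motifs, and the share of all 33469 promoters holding each is given beside them. The letters TATAAA begin 40 bases before the start of Inhba and 28 bases before 1 of the 2 starts of Gdf15, and 14.2% of all promoters hold them. The Egr motif GCGNGGGCG was found in Inhbb and in that same Gdf15 window (4.98% of promoters). The GC box GGGCGG was in Inhbb, Bmp4, Bmp6 and the same Gdf15 window (33.1%), and GC boxes of Inhbb and Gdf15 overlap the Egr match. No member window held the AP-1 letters TGANTCA (7.33%), CRE TGACGTCA (1.83%), ETS CCGGAAGT (3.81%), CAGA box AGCCAGACA (0.368%), ATF4 and CHOP letters TGATGNAA (3.98%) or a CArG box (1.64%). The windows before Tgfb1, Tgfb2 and Tgfb3 held none of the 9. These are descriptions of letters in short windows.

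None of the bone morphogenetic protein genes passed. Bmp2, known from bone and neural crest development, had 4.20, 4.16 and 4.14 in vehicle and 4.40, 4.34 and 4.28 with tamoxifen by its brighter probe set, a difference of 0.17 ± 0.08 (limma, adjusted p = 0.174). Its other probe set gave a difference of the opposite sign, -0.12 ± 0.08 (adjusted p = 0.338). By each probe set the groups did not overlap, yet in opposite order, so the Bmp2 values have no common direction. Bmp4, a close relative of Bmp2, had 4.52, 4.42 and 4.75 in vehicle and 4.66, 4.67 and 4.72 with tamoxifen. The Bmp4 groups overlapped, with a difference of 0.12 ± 0.11 (95% interval -0.13 to 0.38; adjusted p = 0.473). It was 0.05 without vehicle array 2 and 0.22 without vehicle array 3, neither past the threshold.

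Bmp6 encodes a ligand that also regulates iron balance. Its brightest probe set was at 7.85, 7.96 and 8.07 in vehicle and 8.02, 8.11 and 8.06 with tamoxifen, overlapping, with a difference of 0.11 ± 0.09 (95% interval -0.11 to 0.32; limma, adjusted p = 0.469). Of its other 3 probe sets, the first gave 0.11 ± 0.09, the second -0.15 ± 0.15 and the dimmest -0.53 ± 0.23 (adjusted p = 0.150). The dimmest one had a vehicle value of 5.82 in experiment 3 against 5.001 and 4.98 in the others, and tamoxifen values of 4.85, 4.63 and 4.71. No Bmp6 probe set passed, and the sign of the mean over probe sets (-0.11) was opposite to that of the brightest.

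Gdf15, a stress-induced family member that signals through its own receptor, was at 5.51, 5.67 and 5.68 in vehicle and 5.50, 5.49 and 5.33 with tamoxifen. All tamoxifen values lay just below the vehicle values, by a difference of -0.18 ± 0.10 (95% interval -0.41 to 0.05; limma, adjusted p = 0.240) that did not pass. The gap between the nearest arrays of the 2 groups was within the spread of either group.

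Fst varied more between experiments than any other member. Its vehicle values were 7.44, 8.82 and 11.44 in experiments 1, 2 and 3, a range of 3.99 log2 units or 15.9-fold, and its tamoxifen values were 7.92, 8.60 and 9.10. Experiment 3 was the highest and experiment 1 the lowest in both groups. The second Fst probe set gave nearly the same values, 7.65, 8.62 and 11.15 in vehicle and 7.91, 8.20 and 9.07 with tamoxifen. The vehicle SD of 2.03 was the fifth largest of all 14217 genes, where the median gene had 0.135, and the next member in that order was Tgfb3 at 0.41.

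The tamoxifen minus vehicle difference of Fst was 0.48 in experiment 1, -0.21 in experiment 2 and -2.34 in experiment 3. The mean was -0.69 ± 0.94 (95% interval -2.94 to 1.56; limma, adjusted p = 0.662), and -0.74 ± 0.85 by the second probe set. With the experiment as a block it was still not called (adjusted p = 0.420). Without the vehicle array of experiment 3 the sign turned, to 0.41 ± 0.49 (adjusted p = 0.638). The interval of Fst spans over 4 log2 units, so neither a rise like that of Inhba's dimmer probe set nor a fall like that of Tgfb3 could be told from no change.

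**Figure D2:**
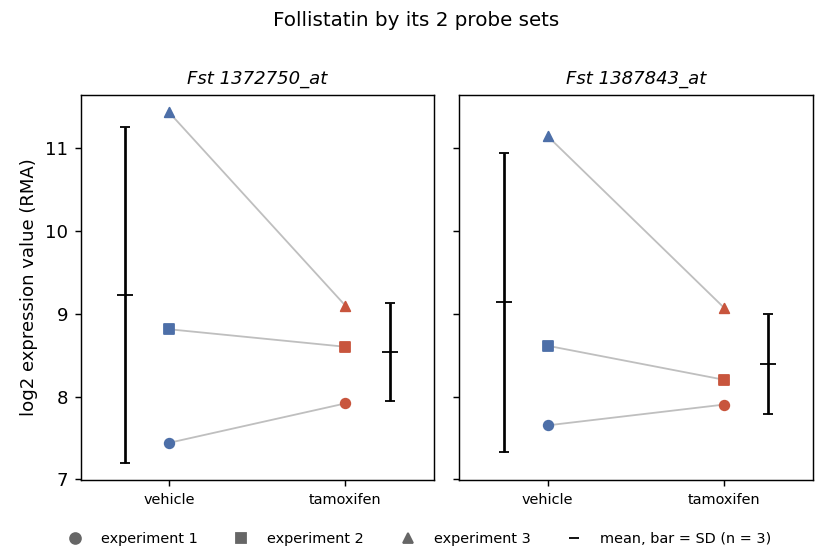
Log2 values of both Fst probe sets on the 6 arrays, with symbols for the experiment, grey lines within an experiment, and mean and SD (n = 3). Both probe sets place the experiments in the same order, and the vehicle array of experiment 3 (11.44 and 11.15) stands above all others.

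**Figure D3:**
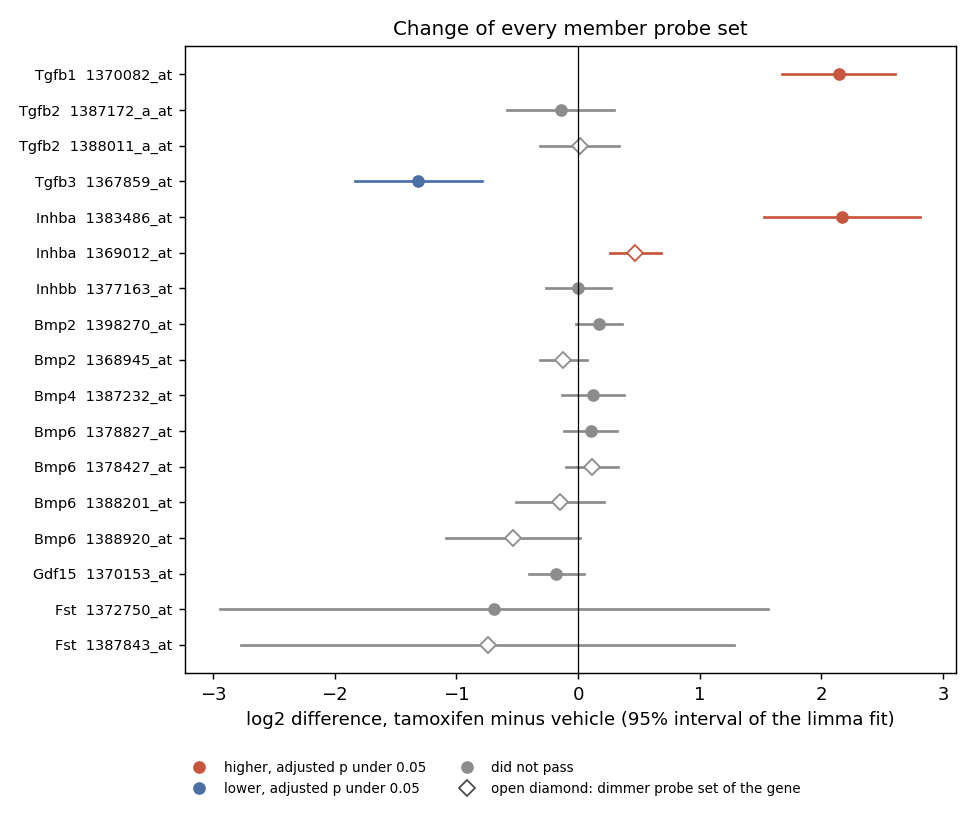
Log2 difference, tamoxifen minus vehicle, of all 17 member probe sets with the 95% interval of the limma fit. Filled circles are the brightest probe set of a gene and open diamonds the others. The intervals of Tgfb1, Tgfb3 and both Inhba probe sets do not reach 0, and that of Fst is the widest, from -2.94 to 1.56.

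By a fixed rule the genes with the nearest profiles over the 6 arrays were found for the member with the largest rise and the one with the largest fall, using the root mean square difference of values centred on each gene's mean. Nearest to Inhba were Opn3 (0.11 log2 units), Nfkbiz (0.21) and Arhgap32 (0.24), which rose by 2.26, 2.10 and 1.96. Nearest to Tgfb3 were Bphl (0.11), Mapre3 (0.11) and Lrig1 (0.12), with differences of -1.46, -1.28 and -1.21. With 6 arrays in 2 groups many genes share such a profile, and the measure mostly reads the size of the group difference.

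The rest of the pathway was taken from lists of 136 genes by role, of which 110 were measured. Of these, 12 rose and 18 fell (27.3%, beside 31.2% of all genes), with a median difference of -0.03. Genes that appear in more than 1 list are counted once here and in each of their lists below.

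**Figure D4:**
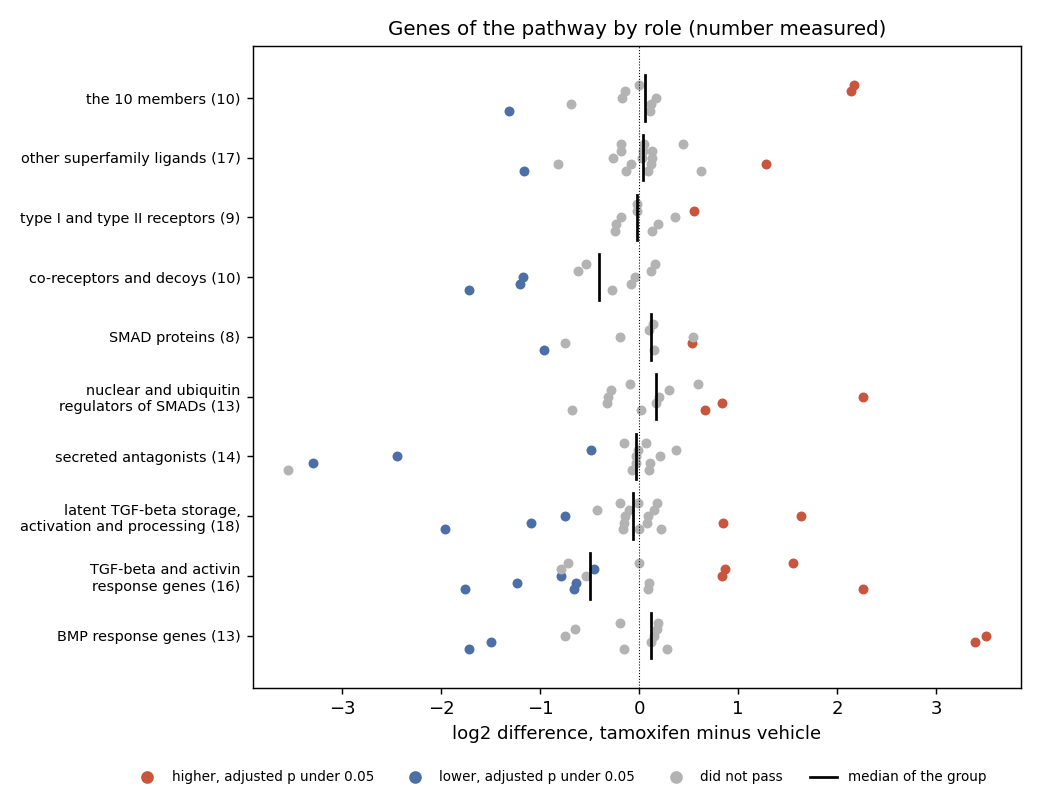
Log2 difference, tamoxifen minus vehicle, of each measured gene by its role, with the number measured; red passed as higher, blue as lower, grey did not pass, and the black line is the median. Passing falls among the secreted antagonists reach -3.29 (Chrdl2), passing rises among the response genes reach 3.50 (Id2), and the 9 receptors lie within 0.6 of 0.

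Of 17 other ligands of the superfamily, 1 rose and 1 fell (11.8%, beside 31.2% of all genes). Both belong to the family of glial cell line-derived neurotrophic factor, which signals through the kinase RET and not through the SMAD receptors. Gdnf rose by 1.28 ± 0.27 (limma, adjusted p = 0.0160), a call lost without the tamoxifen array of experiment 1 (0.0526) or 2 (0.0502). Nrtn fell by 1.16 ± 0.10 (0.000693). With the experiment as a block 2 of the 17 rose and 2 fell, and without the vehicle array of experiment 3 the number that fell was also 2.

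Of 12 listed type I and type II receptor genes 9 were measured; 1 rose and none fell (11.1%, beside 31.2% of all genes), the rise being that of Acvr1, a type I receptor of bone morphogenetic proteins and activin, by 0.56 ± 0.12 (limma, adjusted p = 0.0181). That call was lost without vehicle array 2 (0.0589) or 3 (0.0550), tamoxifen array 1 (0.0596) or 3 (0.0636), or both arrays of experiment 1 (0.0574). The dimmest Acvr1 probe set also passed as higher, at 0.63 ± 0.12 (limma, adjusted p = 0.0126). The remaining one had 0.56 ± 0.21 (limma, adjusted p = 0.102). Tgfbr1, the TGF-beta type I receptor, was at 10.70 ± 0.12 and 10.52 ± 0.18, a difference of -0.19 ± 0.12 (adjusted p = 0.331), and its other probe set had 0.56 ± 0.60. Acvr2a, an activin type II receptor, differed by -0.02 ± 0.15, Bmpr1a by 0.19 ± 0.23 (95% interval -0.36 to 0.74) and Bmpr2 by 0.37 ± 0.26 (-0.26 to 0.99), none past the threshold; without vehicle array 2 Bmpr1a passed (0.46, adjusted p = 0.0367). Tgfbr2 was not analysed here.

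Of 10 co-receptors and decoys 3 fell and none rose, a share of 30% that is near the 31.2% of all genes. Bambi, a decoy receptor without kinase activity, fell by 1.72 ± 0.33 (limma, adjusted p = 0.0108), from 7.76 ± 0.35 to 6.04 ± 0.62, a call lost without both arrays of experiment 1 (0.0609). Lrig1, a membrane protein better known as an inhibitor of ErbB receptors, fell by 1.21 ± 0.22 (0.00935). Rgma, a co-receptor for bone morphogenetic proteins, fell by 1.17 ± 0.33 (0.0435), no longer called without vehicle array 1 (0.0997), 2 (0.0921) or 3 (0.0709), tamoxifen array 2 (0.0788), both arrays of experiment 1 (0.0649) or with the 3′ to 5′ excess in the model (0.117). Tgfbr3, the TGF-beta co-receptor betaglycan, had -0.54 ± 0.28 (0.220). Without vehicle array 3 its difference was -0.24 (adjusted p = 0.448), whereas it passed without vehicle array 1 (-0.84, adjusted p = 0.0236) and with that excess in the model (-0.84, 0.0487).

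All 8 SMAD genes were measured, and 1 rose and 1 fell (25%, beside 31.2% of all genes). Smad4, the common partner, fell by 0.96 ± 0.20 (limma, adjusted p = 0.0144) from a high 12.24 ± 0.30 to 11.28 ± 0.28, and its other probe set by 0.79 ± 0.14. The call by the brighter probe set was lost without tamoxifen array 2 (0.0505). Smad2, which carries the TGF-beta and activin signal, rose by 0.53 ± 0.10 (0.00930), and its partner Smad3 had 0.54 ± 0.21 (0.116). The mean of the Smad3 probe sets was past the threshold (0.95, 0.0349), while the dimmer one had 1.36 ± 0.50 (0.0969). Vehicle values of the dimmer Smad3 probe set were 5.26, 6.81 and 7.35. The lowest was that of experiment 1, the array with the largest 3′ to 5′ excess. A link between this value and that excess was not tested. The probe sets of Smad5, singled out after its values were seen, disagreed: the brightest had 0.14 ± 0.17 (0.618), while 2 others rose by 1.34 ± 0.16 and 1.25 ± 0.17. The remaining Smad5 probe set had 0.54 ± 0.22 (limma, adjusted p = 0.130). The inhibitory SMADs, whose genes the pathway itself induces as feedback, had differences of 0.10 ± 0.09 for Smad7 (0.478) and 0.15 ± 0.09 for Smad6 (0.312). The other Smad7 probe sets had 0.83 ± 0.36 (0.155) and 0.08 ± 0.08. Those of Smad6 other than the brightest had -0.40 ± 0.14, 0.29 ± 0.14 and -0.10 ± 0.10, none past the threshold. The number of SMAD genes that fell was 2 with the experiment as a block, without tamoxifen array 1 or without both arrays of experiment 1.

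Among 13 nuclear and ubiquitin regulators of SMADs 3 rose and none fell (23.1%, beside 31.2% of all genes). Pmepa1, a TGF-beta-induced membrane protein that sequesters SMAD2 and SMAD3, rose by 2.26 ± 0.23 (limma, adjusted p = 0.00129), from 9.92 ± 0.26 to 12.18 ± 0.41. Skil, the corepressor SnoN, rose by 0.84 ± 0.19 (0.0199), not called without vehicle array 3 (0.0596) or both arrays of experiment 1 (0.0636). The corepressor gene Tgif2 rose by 0.66 ± 0.13 (0.0135). With the experiment as a block, and also without tamoxifen array 1, 1 of the 13 fell.

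Of 14 secreted antagonists 3 fell and none rose, a share of 21.4% beside 31.2% of all genes. Chrdl2, a chordin-like binder of bone morphogenetic proteins, fell by 3.29 ± 0.38 (limma, adjusted p = 0.00199). Nbl1, a DAN family antagonist, fell by 2.45 ± 0.44 (0.00899), from 9.62 ± 0.58 to 7.17 ± 0.78. Twsg1, a chordin partner, fell by 0.49 ± 0.12 (0.0240), no longer called without vehicle array 1 (0.0566) or 2 (0.0754), tamoxifen array 2 (0.0772) or 3 (0.0748), both arrays of experiment 1 (0.0513) or with the 3′ to 5′ excess in the model (0.0649). The follistatin-like genes Fstl1 and Fstl3 had -0.03 ± 0.19 and 0.37 ± 0.23, and Nog, the gene of noggin, was at 3.63 ± 0.09 and 3.73 ± 0.09, all without passing.

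Of 18 genes that store and activate latent TGF-beta or cut precursors, 2 rose and 3 fell (27.8%, beside 31.2% of all genes). Pcsk6, a proprotein convertase, fell by 1.96 ± 0.24 (limma, adjusted p = 0.00233). Plau, the protease urokinase, rose by 1.64 ± 0.33 (0.0128). Mmp2, a gelatinase, fell by 1.10 ± 0.31 (0.0422), not called without vehicle array 3 (-0.77, 0.0529), tamoxifen array 1 (0.115) or 2 (0.136), both arrays of experiment 1 (0.118), with cyclic loess (0.0526) or with the 3′ to 5′ excess in the model (0.0673). The others that passed, named after their values were seen, were Mmp14, a membrane protease (0.85, adjusted p = 0.00712), and Ltbp3, a latent TGF-beta binding protein (-0.75, 0.0128). Without tamoxifen array 2 only 1 of the 18 fell.

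Genes known to respond to TGF-beta and activin went both ways: 4 of 16 rose and 6 fell, a share of 62.5% beside 31.2% of all genes, with a median of -0.50. Those that rose were Pmepa1 and Skil, given above, Cdkn2b and, named after its values were seen, Cdkn1a (0.87, 0.00923). Cdkn2b, which encodes the CDK inhibitor p15, rose by 1.56 ± 0.24 (limma, adjusted p = 0.00525). Those that fell were Tgfbi and, likewise named after their values were seen, the collagen genes Col1a1 (-1.23, 0.00427) and Col1a2 (-0.46, 0.0478), Tsc22d1 (-0.80, 0.0145), the integrin gene Itgb5 (-0.66, 0.00798) and Vim (-0.64, 0.00769), the gene of vimentin. Tgfbi, a matrix protein named for its induction by TGF-beta, fell by 1.76 ± 0.31 (0.00873), from 12.19 ± 0.12 to 10.43 ± 0.67. Ccn2, the connective tissue growth factor gene, had -0.79 ± 0.33 (0.135), and was called lower once experiment entered the fit as a block (0.00797). Without vehicle array 3 the Ccn2 difference was -0.48 (0.282). Several of these genes also belong to the collagen, filament and cell cycle programmes and are no pure reading of the pathway.

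Of 13 genes known to respond to bone morphogenetic proteins, 2 rose and 2 fell (30.8%, beside 31.2% of all genes). Id2, a repressor of basic helix-loop-helix factors, rose by 3.50 ± 0.18 (limma, adjusted p = 0.000145). Hes1, a Notch and growth factor target, rose by 3.39 ± 0.50 (0.00427). The other Id genes did not pass: Id1 had -0.65 ± 0.21 (0.0674), Id3 -0.75 ± 0.24 (0.0704) and Id4, added after its values were seen, 0.28 ± 0.24 (0.466). The other probe sets of Id4 were also positive, at 0.34, 0.50 and 0.85, the last with an adjusted p of 0.0667. Id1 was called lower without vehicle array 3 (-0.86, 0.0198). Id3 was called lower with the experiment as a block (0.00854), without vehicle array 1 (-0.99, 0.0142), without both arrays of experiment 1 (0.0186) and with the 3′ to 5′ excess in the model (0.0162). The falls were those of Bambi, given above, and of Atoh8 (-1.49, 0.00112), a transcription factor gene named after its values were seen.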

How the data were processed

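Column-purified RNA (Qiagen RNeasy, per the labels' protocols) of 6 cultures was hybridised to Affymetrix rat arrays. The authors deposited log2 values per probe set made with RMA, per the submitters' processing notes; no version is given in the sources used here. At low signal this method flattens differences, so where a dim gene does differ, its fold is likely too small. The extent of this was not tested here. The values ran from 2.99 to 14.58. The number of arrays limits the precision.

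Of 31099 probe sets, 57 manufacturer controls were left out. A gene symbol came from the platform annotation for 20826 probe sets, while 436 with several symbols and 9780 not listed were not named. The comparison, two-sided and without covariates, used limma 3.58.1 (lmFit, eBayes; R 4.3.3) on all 6 arrays and adjusted over 31042 probe sets. With 3 arrays a group, the smallest exact permutation p is 0.1, so that test was not used. The fit was tested on simulated data, with 200 probe sets altered in each of 10 runs. Where the shift was 0.5 on the log2 scale, 13.2% of the altered probe sets were called. That share was 55.2% for a shift of 1, 90.6% for 2 and 98.8% for 4, and false calls were at 5.07%. Small changes were thus often missed in these runs. Only 200 of 31042 probe sets were altered there, whereas 7578 (24.4%) were called in the data. The adjustment depends on how many probe sets change. These shares therefore do not give the sensitivity of the fit to the data. A gene that did not pass is still not shown to be unchanged.

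Members, lists and tests were chosen with earlier results of these data known. Named genes were all members, fixed pathway genes, and up to 3 passing genes with the largest change per list. The deviations of vehicle and tamoxifen arrays with the same experiment number correlated at 0.26, 0.20 and 0.28. With different numbers they correlated at -0.27 to -0.04. Deviations were centred within each group, so positive values for matched arrays push the others down. The numbers, which the titles give, were taken to pair the arrays, and a blocked fit was among the alternatives. Leaving out experiment 1, and a covariate for the 3′ to 5′ excess, were alternatives chosen after seeing the data. Sequences are from RefSeq (GRCr8). Proteins were not analysed here.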

Additional observations from a re-analysis of the deposited data

How the results depend on the processing

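Under all alternatives tried, Tgfb1 and Inhba stayed called higher, with log2 differences of 1.93 to 2.28 and 1.91 to 2.39 when 1 array was left out. The mean of the Inhba probe sets gave 1.32. Tgfb3 stayed lower, at -1.44 to -1.08, and its call was lost only in the unmoderated test (-1.31, adjusted p = 0.0574), in which 0 member genes were lower. That test called 1133 genes higher and 1102 lower in all, and 4 and 7 pathway genes, against 1979, 2454, 12 and 18 in the moderated fit; with a minimum fold of 1.2 the numbers for all genes were 1137 and 1303. The experiment as a replicate block changed no call of a member, at 2.14 for Tgfb1, 2.17 for Inhba and -1.31 for Tgfb3; of the named pathway genes it changed the call of Ccn2 and Id3, given beside them. Of 21 named pathway genes that passed, 15 were not called in the unmoderated test, 7 against a fold of 1.2 and 6 without both arrays of experiment 1.

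Signs turned for values that had not passed. Leaving out 1 array gave -0.329 to 0.0327 for Tgfb2 (-0.118 to 0.111 by its dimmer probe set), -0.0852 to 0.0960 for Inhbb, -1.59 to 0.412 for Fst (-1.49 to 0.259 by the dimmer one), -0.117 to 0.130 for Acvr2a and -0.174 to 0.171 for Fstl1. Inhbb was at -0.0360 with median centring, -0.0548 with quantile normalization and -0.0462 with cyclic loess. The dimmer Tgfb2 probe set was at -0.0228 and -0.00883 with the first 2 of these and at -0.0470 with the 3′ to 5′ excess as a covariate, and without both arrays of experiment 1 the brighter one was at 0.0889. Acvr2a was at 0.0361 with quantile normalization and 0.0806 with cyclic loess, and Bmpr1a at -0.00791 with the covariate. The mean of the probe sets gave -0.114 for Bmp6, 0.189 for Tgfbr1, -0.0171 for Smad6 and 0.144 for Fstl1. Tgfb2 has no probe set without a suffix. The cause of these turns was not tested.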

Other observations

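Fst was not the only secreted antagonist of the family with a wide spread in vehicle. Sostdc1, which binds bone morphogenetic proteins and was singled out after its values were seen, had 7.33, 8.86 and 12.16 on the vehicle arrays of experiments 1, 2 and 3, and 5.54, 5.596 and 6.57 with tamoxifen. Its vehicle SD of 2.46 was the second largest of all genes, and its log2 difference of -3.55 ± 1.13 did not pass (limma, adjusted p = 0.0641). Of the 20 genes with the largest vehicle SD, 18 were highest on the vehicle array of experiment 3 and 2 on that of experiment 2, whereas over all genes the array of experiment 3 was the highest of the vehicle arrays for 28.8%. Among these 20 were Mfap5, Aldh1a1 and Ccdc80, at 10.81, 9.74 and 12.53 on that array against at most 6.51, 6.74 and 10.11 on the other vehicle arrays. On the tamoxifen array of experiment 3, Aldh1a1 (8.11 against 6.07 and 6.32) and Ccdc80 (10.48 against 8.87 and 9.04) were again the highest, while Mfap5 was not (5.08 against 5.05 and 5.17). The cause of this pattern was not tested.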
